A study of Homo sapiens with 6 samples.

Results

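Base excision repair (BER) and single-strand break repair are followed here through 10 core genes, *PARP1*, *PARP2*, *XRCC1*, *LIG3*, *POLB*, *APEX1*, *UNG*, *OGG1*, *NTHL1* and *MPG*. They are the rows of the deposited gene table that carry these symbols, and they make up 10 of the 16798 genes in the table. Bulk RNA-seq was carried out on total RNA of COV434, an established human cell line that the labels describe as granulosa cells (GCs). The control group held 3 samples with a genotype label of WT, and the labels do not state a vehicle. The 4HC group held 3 samples with a genotype label of CTX, exposed to 15 µM 4HC for 24 h, where 4HC is the form of cyclophosphamide (CTX) that is active in cells. All samples came from the same line in serum-containing medium, and the labels do not say whether samples of a group were grown separately, so the p-values measure the spread between these samples, which may be technical.

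The total of expected counts, RSEM's estimates of the reads per gene, was between 16133786 and 16702316 per sample. No group stood out in depth, with medians of 16374203 in control and 16281027 in 4HC. Of 10 granulosa markers 8 were in the table, and 7 of these had a mean under 1 CPM (counts scaled to 1e+06 per library, with the TMM factors of edgeR). The summed level of these 8 markers was 5.19 to 8.51 CPM in control and 5.33 to 6.91 CPM in 4HC, mostly *AMH*, so the defining genes *FSHR*, *CYP19A1* and *FOXL2* were close to 0 and the label could not be read from the RNA. The 4 fibroblast markers summed to 386 to 409 CPM in control and 386 to 392 CPM in 4HC, mostly *COL3A1*. They differed in level, with control means of 283 CPM for *COL3A1*, 65.8 for *LUM*, 48.0 for *DCN* and 0.918 for *COL1A1*. Whether fibroblasts were present was not tested. The leukocyte markers summed to 2.96 to 3.26 CPM in control and 3.00 to 4.65 CPM in 4HC. In bulk RNA, fewer cells of a type and less RNA per cell cannot be told apart.

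BER removes small base lesions, such as oxidized, deaminated or alkylated bases, without unwinding a long stretch of DNA. A DNA glycosylase (UNG, OGG1, NTHL1 or MPG) cuts the damaged base from the sugar, the AP endonuclease APEX1 nicks the backbone at the empty site, DNA polymerase beta (POLB) fills the gap, and DNA ligase III (LIG3), held by the scaffold XRCC1, closes the nick. PARP1 and PARP2 bind the exposed break and coat themselves and their neighbours with ADP-ribose, which draws XRCC1 to the site. The active mustard of CTX alkylates guanine, and MPG is the glycosylase best known for removing alkylated purines. Several of these enzymes also serve the mitochondria, and *UNG* makes its nuclear and mitochondrial forms from different start sites.

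The *UNG* start sites are shown first, since the mitochondrial transcript had the largest fold change of the 23 transcripts that held at least 10% of the counts of a core gene. Both transcripts lie on the plus strand of chromosome 12. The nuclear form UNG2 (NM_080911) starts upstream, and the mitochondrial form UNG1 (NM_003362) starts inside what is the first intron of UNG2. The coding part that each form does not share with the other is given below from GENCODE 29 on GRCh38, 5′ to 3′, with the start codon in capitals. These stretches hold 132 and 105 bases, that is 44 and 35 codons, ahead of 807 coding bases that both forms share.
UNG2 only, chr12:109097680-109097811: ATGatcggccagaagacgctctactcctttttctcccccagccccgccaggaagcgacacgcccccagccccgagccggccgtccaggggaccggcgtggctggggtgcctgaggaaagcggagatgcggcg
UNG1 only, chr12:109098327-109098431: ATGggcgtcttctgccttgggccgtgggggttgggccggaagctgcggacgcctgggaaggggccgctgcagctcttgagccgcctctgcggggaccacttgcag
The stretches before both *UNG* starts, and before the starts of *APEX1* and *LIG3*, the core genes that fell, are given so that the letters ahead of these starts can be compared. They are the parts of the RefSeq windows of 250 bases before each start (GRCh38.p14, plus strand) that hold no annotated exon. Capitals mark matches, on either strand, to the letters of known promoter elements. The SP1 box was searched as GGGCGG, which binds factors of the SP and KLF family. The E-box, bound by MYC and USF among others, was searched as CACGTG. The third element was the CCAAT box, bound by NF-Y and searched by those letters alone. For the E2F site the words TTTCCCGC, TTTGGCGC, TTTCGCGC and TTTGCCGC were used, and for the CRE, bound by CREB, the word TGACGTCA. No matches overlapped in the stretches shown.
before UNG2, chr12:109097347-109097573: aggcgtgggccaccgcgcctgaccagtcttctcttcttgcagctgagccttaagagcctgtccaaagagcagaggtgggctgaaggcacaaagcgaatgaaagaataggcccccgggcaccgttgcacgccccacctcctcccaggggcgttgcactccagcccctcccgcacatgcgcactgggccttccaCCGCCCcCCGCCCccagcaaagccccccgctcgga
before UNG1, chr12:109097922-109098117: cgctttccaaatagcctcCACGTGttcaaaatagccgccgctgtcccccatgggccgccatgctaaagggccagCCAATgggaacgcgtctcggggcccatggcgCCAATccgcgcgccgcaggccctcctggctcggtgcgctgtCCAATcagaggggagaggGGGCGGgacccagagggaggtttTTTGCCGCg
before APEX1, chr14:20455106-20455190: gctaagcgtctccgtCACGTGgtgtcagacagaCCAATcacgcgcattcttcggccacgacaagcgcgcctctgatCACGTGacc
before LIG3, chr17:34980262-34980493: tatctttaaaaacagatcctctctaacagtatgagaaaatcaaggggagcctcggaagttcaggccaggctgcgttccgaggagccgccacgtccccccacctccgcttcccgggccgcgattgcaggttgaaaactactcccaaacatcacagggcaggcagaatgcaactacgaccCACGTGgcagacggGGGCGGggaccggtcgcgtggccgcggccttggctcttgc

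The windows before the *UNG* starts differed in these letters. The full window of UNG2 held 2 SP1 boxes and no other match, whereas that of UNG1 held 3 SP1 boxes, 3 CCAAT boxes, 2 E-boxes and 1 E2F word, the latter ending 55 bases before the start. The *APEX1* window held 3 E-boxes, ending 99, 38 and 17 bases before the start, and 1 CCAAT box. The *LIG3* window held 1 E-box and 1 SP1 box. Of the 35116 RefSeq windows, 42.6% held an SP1 box, 32.0% a CCAAT box, 6.3% an E-box, 2.8% an E2F word and 1.6% a CRE. The matches are a description of the letters and not of binding. An E-box was also found before *NTHL1* and *MPG*, which did not pass the test, and the only CRE among the core genes ended 6 bases before the *PARP2* start.

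**Figure D1:**
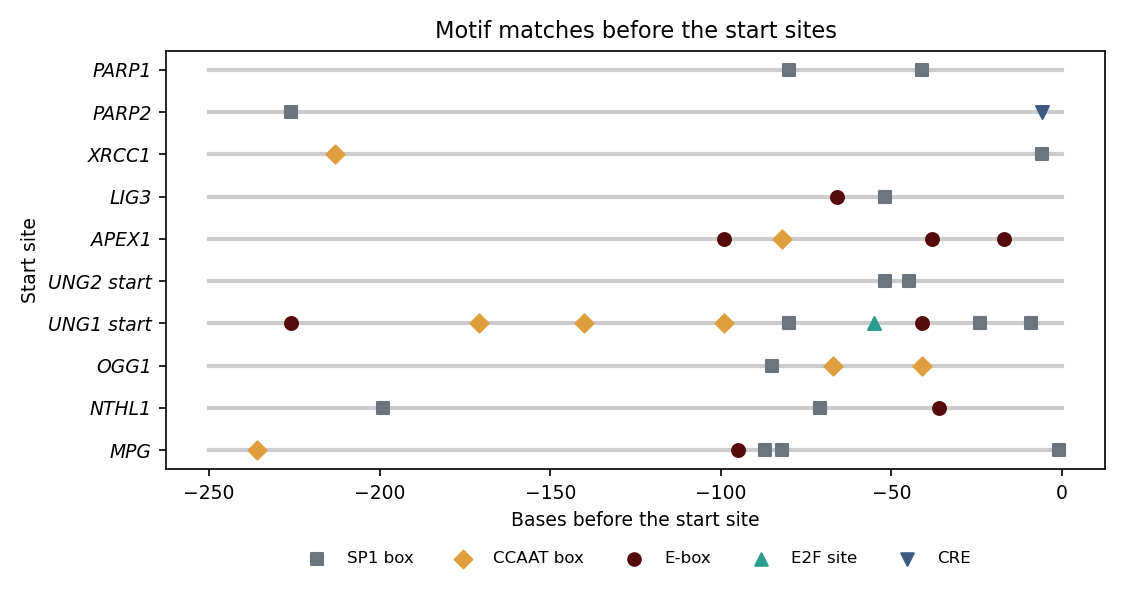
Motif matches in the 250 bases before each RefSeq start site of 9 core genes (10 windows; the horizontal axis gives bases before the start, each symbol is 1 match). The UNG1 start has matches of 4 kinds, and the UNG2 start has SP1 boxes alone.

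Per transcript length, on the deposited TPM scale (transcripts scaled to length and to 1e+06 per sample), *APEX1* had the highest level of the 10 genes in control, at 399 ± 8.40 TPM (SD, n = 3), higher than 97.5% of the 12368 genes tested. *PARP1* followed at 173 ± 5.98 TPM and *MPG* at 118 ± 4.34 TPM. *UNG* at 58.1 ± 1.83 TPM and *PARP2* at 58.1 ± 2.06 TPM did not differ beyond their spread. Below them came *NTHL1* at 46.8 ± 0.744 TPM, *OGG1* at 35.0 ± 1.43 TPM, *POLB* at 31.6 ± 2.46 TPM and *XRCC1* at 28.7 ± 0.313 TPM, where the *OGG1* and *POLB* samples overlapped and *POLB* differed from *XRCC1* by little more than its SD. *LIG3* had the lowest level, 21.6 ± 0.679 TPM, at the 56.1 percentile of tested genes. On this scale the gene of the endonuclease stood far above those of the ligase and its scaffold. In 4HC *APEX1* stayed the highest at 353 ± 2.50 TPM and *LIG3* the lowest at 18.1 ± 1.75 TPM, while *PARP2* at 61.4 ± 1.87 TPM stood above *UNG* at 53.8 ± 1.73 TPM.

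**Figure D2:**
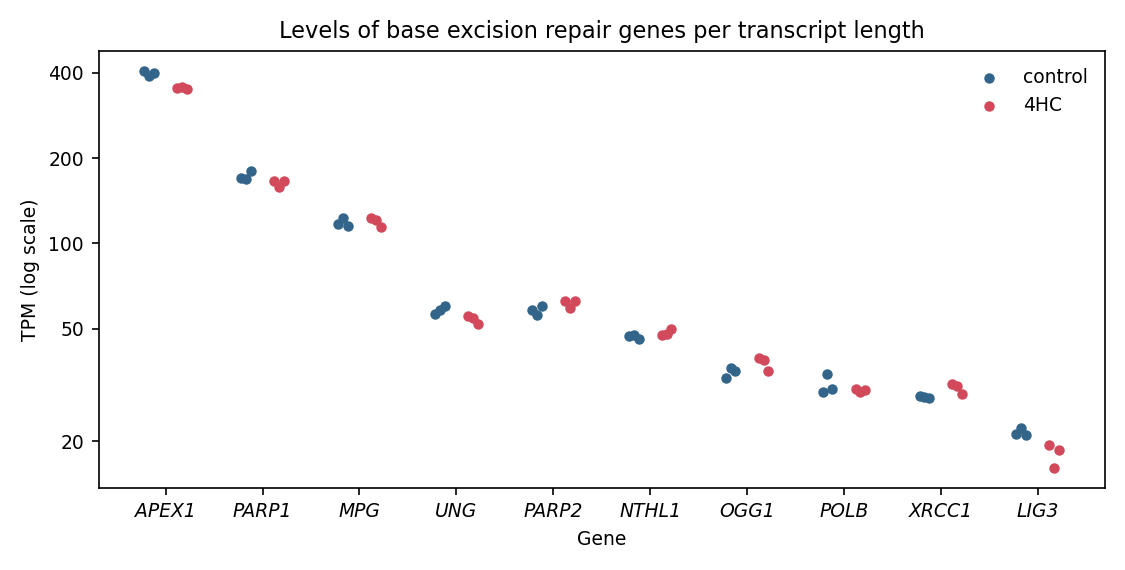
Deposited TPM of the 10 core genes in each sample (log axis; blue, 3 control samples; red, 3 4HC samples), ordered by the control mean. APEX1 is highest at 399 TPM and LIG3 lowest at 21.6 TPM in control, and the treatment groups lie close together for every gene.

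The comparison of 4HC with control asks how the RNA of these repair genes differed after exposure to the alkylating agent. In edgeR's quasi-likelihood test with Benjamini-Hochberg adjustment over 12368 genes, 2 of the 10 core genes fell (*APEX1* and *LIG3*), none rose and 8 did not pass an adjusted p of 0.05. Over all genes tested 17.1% fell and 19.2% rose, so the share of core genes that fell was close to the background. None of the 10 rose at an unadjusted p under 0.05 or in DESeq2. At an unadjusted p under 0.05 there were 4 core genes, all of them lower in 4HC (*PARP1*, *LIG3*, *APEX1* and *UNG*), against 44.5% of all genes in either direction. No core gene reached a fold change of 2, which 1.15% of all genes did at an unadjusted p under 0.05. The median log2 fold change of the core genes was -0.02, against 0.00 over all genes, and their median absolute change was 0.10, against 0.13. The samples of the groups did not overlap in 6 of the 10 genes (4HC above in *PARP2* and *XRCC1*, below in *PARP1*, *LIG3*, *APEX1* and *UNG*), which held for 45.3% of all genes tested (4HC above in 23.4%, below in 21.9%). For the 8 genes that did not pass, the fitted change lay between -7.04% and 8.35%, and their 95% intervals between -13.5% and 17.4%.

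**Figure D3:**
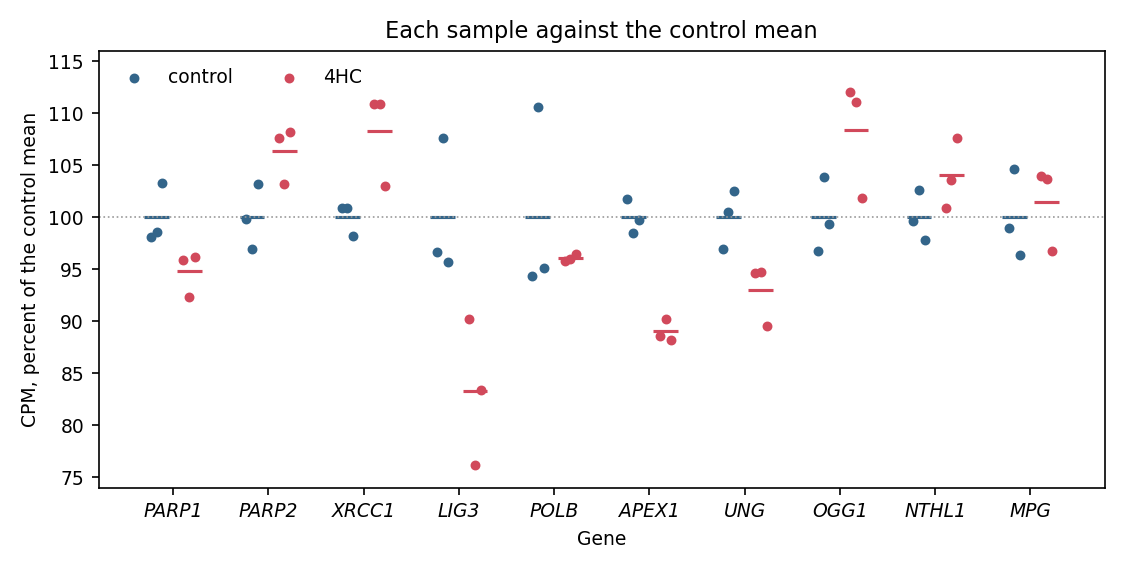
CPM of each sample as a percent of the control mean of its gene (blue, control; red, 4HC; bars are group means, n = 3 each). APEX1 and LIG3 lie below all control samples, and POLB, OGG1, NTHL1 and MPG overlap.

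Of the break sensors, *PARP1* encodes the main nuclear ADP-ribose polymerase (NCBI Gene 142, chr1:226360691-226408093 of GRCh38, minus strand). *PARP1* was at 399.9, 402 and 421 CPM in control and at 391, 377 and 392 CPM in 4HC. Each 4HC sample was below each control sample, by a small margin. The means were 408 ± 11.8 CPM in control and 387 ± 8.60 CPM in 4HC, which gave a log2 fold change of -0.08 (SE 0.033, 95% interval -0.14 to -0.01) that did not pass edgeR's quasi-likelihood test with Benjamini-Hochberg adjustment (adjusted p = 0.0582). This gene lay at the threshold: it passed in DESeq2 (adjusted p = 0.0471), with DESeq2's size factors within edgeR (0.0431), with a minimum of 10 counts in every sample (0.0462), and without control replicate 2 (0.0485) or 4HC replicate 1 (0.043). Its size was -0.09 to -0.05 in all of the alternatives.

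*PARP2* encodes its closest relative among break-activated polymerases (NCBI Gene 10038, chr14:20343041-20357904, plus strand). *PARP2* was at 57.5, 55.8 and 59.43 CPM in control and at 62.0, 59.45 and 62.3 CPM in 4HC. The highest control and the lowest 4HC sample nearly touched. The log2 fold change of 0.09 (SE 0.049, 95% interval -0.01 to 0.19) did not pass edgeR's quasi-likelihood test (Benjamini-Hochberg adjusted p = 0.151). Within each sample, the ratio of *PARP1* to *PARP2* counts was 6.95, 7.20 and 7.09 in control and 6.30, 6.34 and 6.29 in 4HC. The ratio was lower in each 4HC sample than in each control sample, with means of 7.08 ± 0.124 and 6.31 ± 0.0216. The exact permutation test, two-sided, gave p = 0.1, the smallest that 3 samples against 3 allow.

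XRCC1 is the scaffold without catalytic activity that holds the ligase and polymerase at the break (NCBI Gene 7515, chr19:43543311-43575618, minus strand). *XRCC1* was at 32.7, 32.7 and 31.8 CPM in control and at 35.9, 35.9 and 33.4 CPM in 4HC. The 4HC samples were above the control samples, and 4HC replicate 3 was the nearest to them. The log2 fold change of 0.11 (SE 0.058, 95% interval -0.0028 to 0.23) did not pass edgeR's quasi-likelihood test (Benjamini-Hochberg adjusted p = 0.122). GENCODE places exons of an antisense gene over 15.5% of the *XRCC1* exon bases and of a gene on the same strand over 6.48%, and neither of these genes was tested here.

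*LIG3*, the ligase that XRCC1 carries and the sole DNA ligase of mitochondria, fell the most of the core genes (NCBI Gene 3980, chr17:34980504-35012089, plus strand). *LIG3* was at 55.6, 61.9 and 55.0 CPM in control and at 51.9, 43.8 and 48.0 CPM in 4HC. The groups did not overlap, with control replicate 2 the highest and 4HC replicate 2 the lowest. The mean fell from 57.5 ± 3.83 to 47.9 ± 4.03 CPM, a change of -16.6% or -0.26 on the log2 scale (SE 0.056, 95% interval -0.37 to -0.15, adjusted p = 0.000149 in edgeR's quasi-likelihood test with Benjamini-Hochberg adjustment). Exons of *RFFL*, on the other strand, cover 29.1% of the annotated *LIG3* exon bases, and the sources used here do not state whether the counting used strand. *RFFL* itself had a log2 fold change of -0.02 (adjusted p = 0.856).

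Of the ligase and its scaffold, only the gene of the ligase thus passed the test. The *XRCC1* samples of 4HC lay above control without passing it. The ratio of *LIG3* to *XRCC1* counts was 1.70, 1.89 and 1.73 in control and 1.45, 1.22 and 1.44 in 4HC. The ratio was lower in every 4HC sample, with means of 1.78 ± 0.104 and 1.37 ± 0.127 (exact permutation test, two-sided, p = 0.1, the smallest possible). The 3 ratios of this kind, of *PARP1* to *PARP2*, *LIG3* to *XRCC1* and *APEX1* to *APEX2*, were picked after the values were seen. Each sets a gene whose 4HC samples all lay below control over one whose 4HC samples all lay above. Their lack of overlap and p of 0.1 in the exact permutation test were thus fixed in advance and add no evidence. Adjusted over the 3 ratios, p is also 0.1, which does not cover that choice.

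POLB, the polymerase that fills the gap of a lost nucleotide, is encoded on chromosome 8 (NCBI Gene 5423). *POLB* was at 18.4, 21.6 and 18.6 CPM in control and at 18.7, 18.7 and 18.9 CPM in 4HC. The 4HC samples lay within the range of control, where replicate 2 stood above the other samples. The log2 fold change of -0.06 (SE 0.075, 95% interval -0.21 to 0.09, edgeR's quasi-likelihood test, Benjamini-Hochberg adjusted p = 0.587) turned to 0.02 without control replicate 2.

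APEX1 nicks the DNA at sites that have lost a base, and is also known as a redox regulator of transcription factors (NCBI Gene 328, chr14:20455219-20457767, plus strand). *APEX1* was at 299.3, 289.6 and 293 CPM in control and at 260.5, 265 and 259 CPM in 4HC. The samples within each group were close together and the groups were far apart relative to that spread. The mean fell from 294 ± 4.91 to 262 ± 3.21 CPM, a change of -11.0% or -0.17 on the log2 scale (SE 0.033, 95% interval -0.23 to -0.10, adjusted p = 5.73e-05 in edgeR's quasi-likelihood test with Benjamini-Hochberg adjustment). It remained between -0.18 and -0.15 in every alternative. *APEX2*, which encodes another AP endonuclease that works with the replication clamp, went the other way and rose from 24.4 ± 1.00 to 29.5 ± 0.464 CPM (log2 fold change 0.28, SE 0.063, adjusted p = 0.000372). The ratio of *APEX1* to *APEX2* counts was 12.4, 12.3 and 11.5 in control and 8.67, 9.10 and 8.83 in 4HC, again without overlap (12.1 ± 0.497 against 8.86 ± 0.218, exact permutation test, two-sided, p = 0.1).

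None of the 4 core glycosylases passed the test. *UNG* encodes the enzyme that removes uracil from DNA (NCBI Gene 7374, chr12:109097597-109110992, plus strand). *UNG* was at 63.8, 66.2 and 67.5 CPM in control and at 62.3, 62.3 and 58.9 CPM in 4HC. All 4HC samples were below all control samples. The log2 fold change of -0.11 (SE 0.048, 95% interval -0.20 to -0.01) did not pass edgeR's quasi-likelihood test (Benjamini-Hochberg adjusted p = 0.0786).

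*OGG1* encodes the glycosylase for oxidized guanine (NCBI Gene 4968, chr3:9749952-9788246, plus strand). *OGG1* was at 33.8, 36.3 and 34.8 CPM in control and at 39.2, 38.9 and 35.6 CPM in 4HC. The groups overlapped through 4HC replicate 3. The log2 fold change of 0.12 (SE 0.058, 95% interval -0.00075 to 0.23) did not pass edgeR's quasi-likelihood test (Benjamini-Hochberg adjusted p = 0.115), but did without 4HC replicate 3 (0.16, adjusted p = 0.043). Exons of *CAMK1* on the other strand cover 24.96% of its exon bases, and *CAMK1* rose by 0.15 on the log2 scale (adjusted p = 0.0214). The part of reads from that strand in the *OGG1* value was not tested.

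NTHL1 removes oxidized pyrimidines (NCBI Gene 4913, chr16:2039820-2047847, minus strand). *NTHL1* was at 21.8, 22.5 and 21.4 CPM in control and at 22.1, 22.7 and 23.6 CPM in 4HC. The groups overlapped, and the log2 fold change was 0.06 (SE 0.068, 95% interval -0.08 to 0.19, edgeR's quasi-likelihood test, Benjamini-Hochberg adjusted p = 0.546). Exons of *TSC2* cover 16.5% of its exon bases, and *TSC2* rose by 0.12 on the log2 scale (adjusted p = 0.0429).

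*MPG*, the gene for the alkyladenine glycosylase, had the smallest change of the core genes (NCBI Gene 4350, chr16:77007-85846, plus strand). *MPG* was at 56.5, 59.6 and 55.0 CPM in control and at 59.3, 59.1 and 55.1 CPM in 4HC. The groups overlapped almost fully. The log2 fold change was 0.02 (SE 0.050, 95% interval -0.08 to 0.12, edgeR's quasi-likelihood test, Benjamini-Hochberg adjusted p = 0.778), and it was -0.01 without control replicate 3. Exons of *NPRL3* on the other strand cover 27.3% of its exon bases, and *NPRL3* did not pass the test (-0.05, adjusted p = 0.574).

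The 10 genes had 52 transcripts in the deposited transcript table, of which 35 were tested among 42216 and 23 held at least 10% of the counts of their gene in either group. No transcript of a core gene passed edgeR's quasi-likelihood test with Benjamini-Hochberg adjustment in either direction, against 0.706% of all transcripts that rose and 0.587% that fell. Of all transcripts, 5.51% were lower in 4HC at an unadjusted p under 0.05, and 11% passed it in either direction. Of the 35 core transcripts 2 were lower, close to that share, and none higher. These 2 were UNG1 (NM_003362) and the main *APEX1* transcript (NM_001641), and DESeq2 called both lower and none higher, against 3.56% of all transcripts that it called lower. The edgeR and DESeq2 calls thus differed for these 2 transcripts.

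Of the 23 transcripts with at least 10% of the counts of a core gene, UNG1 had the largest fold change. The expected count of UNG1 was 330, 302 and 332 in control and 162, 215 and 153 in 4HC. No 4HC sample reached the lowest control sample. The mean went from 321 ± 16.68 to 177 ± 33.7, a log2 fold change of -0.86 (SE 0.161, 95% interval -1.26 to -0.47) that missed the threshold in edgeR's quasi-likelihood test (Benjamini-Hochberg adjusted p = 0.0837). It passed in DESeq2 (adjusted p = 1.84e-05) and in edgeR with a minimum of 10 counts in every sample (0.0421), and without each sample in turn the change was -1.04 to -0.77 (adjusted p 0.0856 to 0.257). For UNG2 the expected count was 705, 773 and 787 in control and 870.0, 796 and 810.5 in 4HC. The 4HC samples were above the control samples, with a log2 fold change of 0.13 (SE 0.055, edgeR adjusted p = 0.503). The mitochondrial form thus made up 31.8%, 28.1% and 29.7% of the *UNG* counts in control and 15.7%, 21.3% and 15.8% in 4HC. The shares did not overlap, with means of 29.9 ± 1.88% and 17.6 ± 3.18% (exact permutation test, two-sided, p = 0.1, the smallest possible). UNG1 was picked for its change, and its 4HC counts all lay below control while those of UNG2 all lay above. The lack of overlap of the shares and the p of that permutation test were thus fixed by these counts and add no evidence.

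The shift in share did not pass a test across all transcripts. Of the 33 tested transcripts of core genes that have a tested partner, none passed edgeR's diffSpliceDGE test of a change unlike that of the rest of the gene (0.0673% of all transcripts did), and none was below an unadjusted p of 0.05. In limma on the log2 odds of the share, an alternative added after the data were seen, none passed either (adjusted p = 0.322 for UNG1). Of all transcripts 0.135% did. Below an unadjusted p of 0.05 were 2 of the 33, the *UNG* pair, close to the 5.71% of all transcripts. The *UNG* shares sum to the whole gene, so the pair counts as the same event. Of all transcripts with at least 10% of their gene, in genes with 2 or more tested transcripts, 13.7% had shares that did not overlap between groups. Of the 23 core transcripts with at least 10% of their gene, 2 had such shares, again the *UNG* pair, which is no higher a share. The sets differ, since the 23 include the only transcripts of *PARP1* and *XRCC1*, whose shares cannot change. Only 314 bases of UNG1 and 255 bases of UNG2 are not shared between these transcripts, the coding part of which is printed above, so the split of *UNG* reads rests on reads that touch these bases.

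In the other core genes, no transcript with at least 10% of its gene had shares without overlap between groups. For *POLB* XM_005273538 the control counts were 0, 64.5 and 26.0 (log2 fold change 0.08, SE 1.43). *POLB* NM_002690 was at 36.5, 99.85 and 19.2 in control (0.18, SE 0.633), so *POLB* does not show whether a shift occurred. The *PARP2* transcripts NM_001042618 and NM_005484 were at 0.05 (SE 0.086) and 0.16 (SE 0.136). *PARP1* and *XRCC1* had 1 counted transcript each. The main *APEX1* transcript held 77.4% of the gene in both groups (log2 fold change -0.17, edgeR adjusted p = 0.113). Of the *LIG3* transcripts, the alpha form NM_013975, which partners XRCC1, was at -0.35 (SE 0.198) and the beta form NM_002311 at -0.24 (SE 0.178). Their edgeR adjusted p were 0.699 and 0.836. *LIG3* XM_005257970 was at -0.44 (SE 0.252) and XM_017024624 at 0.09 (SE 0.292). The *OGG1* form NM_002542, which encodes the nuclear enzyme, was at 0.13 (SE 0.125), and NM_016821, a mitochondrial one, at 0.05 (SE 0.239). *OGG1* NM_016820 was at 0.48 (SE 0.358, edgeR adjusted p = 0.845). *NTHL1* and *MPG* were each dominated by 1 transcript, with 96.0% and 96.4% of their counts in control.

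The rest of the pathway was read from a list of 29 further BER genes, chosen with earlier results of these data known. In edgeR's quasi-likelihood test with Benjamini-Hochberg adjustment 15 of them rose, 2 fell and 12 did not pass, against 19.2% of all genes that rose and 17.1% that fell. Their median log2 fold change was 0.20, against -0.02 in the core genes, and the difference between the lists was not tested. The list of long-patch repair, which replaces several nucleotides, holds enzymes of replication and *POLL*, a gap-filling relative of *POLB*, and 9 of its 12 genes rose and none fell, with a median of 0.31. *PCNA*, the sliding clamp, rose from 275 ± 5.97 to 567 ± 6.82 CPM (log2 fold change 1.04, SE 0.032, adjusted p = 6.87e-32) and was the only gene of these lists past a fold change of 2. *LIG1*, the replicative ligase that closes long patches, rose from 80.7 ± 4.40 to 132 ± 5.37 CPM (0.70, SE 0.044, adjusted p = 2.85e-19). *POLE*, the catalytic subunit of polymerase epsilon, rose from 121 ± 1.34 to 167 ± 9.07 CPM (0.46, SE 0.040, adjusted p = 4.13e-14). The ligase genes of the long and short patch routes, *LIG1* and *LIG3*, thus had fitted changes of 0.70 and -0.26, each against its own control.

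Among the 7 other glycosylases 3 rose and 2 fell, where 19.2% of all genes rose and 17.1% fell. *NEIL3*, a glycosylase for oxidized bases that also opens interstrand crosslinks, rose from 17.6 ± 0.594 to 24.3 ± 1.20 CPM (0.47, SE 0.071, edgeR adjusted p = 4.71e-07). *NEIL2*, its relative, fell from 37.6 ± 1.55 to 27.9 ± 0.730 CPM (-0.43, SE 0.059, adjusted p = 5.07e-08). *MUTYH*, which removes adenine opposite oxidized guanine, rose by 0.21 on the log2 scale (adjusted p = 0.035), a call lost in DESeq2 (adjusted p = 0.146) and without any of 5 samples in turn (up to 0.165). Of the 4 end-processing genes 3 rose and none fell, against the same shares of all genes. Besides *APEX2*, these were *APTX*, which clears abortive ligation products (0.20, SE 0.049, adjusted p = 0.000829), and *APLF*, an end-joining accessory factor near the detection limit (0.714 ± 0.101 to 1.41 ± 0.235 CPM, 0.97, SE 0.300, adjusted p = 0.0087), which missed the threshold without 4HC replicate 2 (0.0512). The change of *APLF* was 0.30 and 0.22 in limma on log2 of TPM and FPKM with a pseudocount of 1, and DESeq2 gave it no adjusted p. The other gene that fell was *TDG*, the thymine glycosylase (-0.11, adjusted p = 0.0301), which is named after its value was seen, and its call was lost in DESeq2 and without control replicate 1 or 4HC replicate 1, among other alternatives. None of the 6 further genes that write, read or remove ADP-ribose, or assist in this, passed the edgeR test. Their median log2 fold change was 0.09. At an unadjusted p under 0.05 were 2 of the 6, against 44.5% of all genes.

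**Figure D4:**
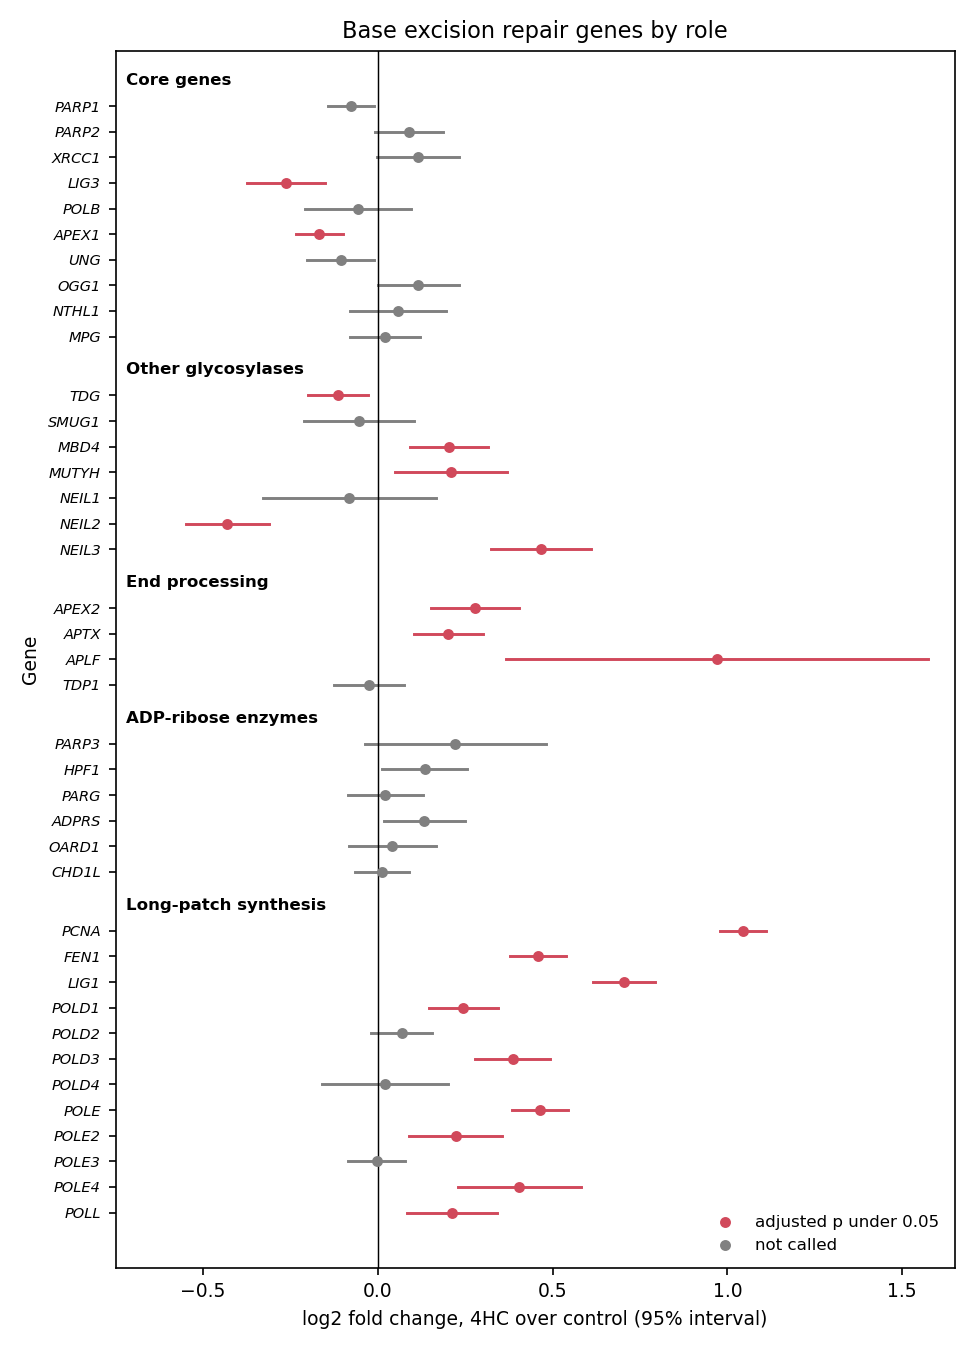
Log2 fold change of 4HC over control with 95% interval (edgeR) for the 10 core genes and 29 further BER genes, grouped by role (red, adjusted p under 0.05; grey, not passed). Core genes lie between -0.26 and 0.12, and long-patch genes reach 1.04.

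Of a list of 36 S phase genes 26 rose and 3 fell in edgeR's test (*MCM6*, *CDCA7* and *TIPIN*, named after their values were seen), with a median log2 fold change of 0.32, where 19.2% of all genes rose and 17.1% fell. All 20 of a list of p53 target genes rose, with a median of 0.83. Of these, 6 were past a fold change of 2, which 1.15% of all genes reached at an unadjusted p under 0.05. Both lists were chosen with earlier results of these data known, so their counts are not independent evidence. The part of either programme in the values of the repair genes was not tested. Of the 10 marker genes of other cell types 6 were tested, none of them endothelial, and none passed.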

How the data were processed

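Total RNA of 3 control and 3 4HC samples of COV434 cells was sequenced. Reads had been filtered by the authors using SOAPnuke. The submitters' processing notes name HISAT2, Bowtie2, RSEM 1.3.1 and GRCh38.p13. The authors deposited an expected count per gene and per transcript, not normalized, with TPM and FPKM values scaled by them to length and library size. The deposited log2 fold changes, p-values and q-values of the authors' own DESeq2 comparison were not used, nor was another gene table with identical values. Whole numbers made up 85.5% of the gene expected counts, and the total per sample was 16133786 to 16702316.

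Expected counts were rounded and tested with edgeR 4.0.16 (TMM, filterByExpr, quasi-likelihood test, two-sided, condition as the only term) in R 4.3.3 over 12368 genes and 42216 transcripts, with Benjamini-Hochberg adjustment and a threshold of 0.05. The transcript usage test was edgeR's diffSpliceDGE. A fold change of 2 with an unadjusted p under 0.05 is the study's criterion. Alternatives were DESeq2 1.42.0 in place of edgeR, a change of scaling in edgeR (DESeq2's size factors, or library size alone), a change of filter (none, or at least 10 counts per sample), a block for the replicate number, limma 3.58.1 on the log2 values of TPM or FPKM (pseudocount 1 or 0.1), and leaving out each sample. The main edgeR tests of genes and transcripts, DESeq2 on transcripts and diffSpliceDGE were first run on simulated data. The other alternatives, the limma tests and the permutation tests were not. Ratios within samples were compared with exact permutation tests.

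The core genes and the lists were chosen with earlier results of these data known. A gene of the end-processing list is not reported here. All 10 core genes were named, with some of their transcripts of at least 10% of the gene counts. Of the further BER genes, up to 3 per role with the largest change past the threshold were named. Marker lists covered granulosa cells, fibroblasts, leukocytes and endothelium; the endothelial genes summed to at most 0.185 CPM. Gene coordinates are those of the deposited table on GRCh38, strands and exon overlaps those of GENCODE 29. A RefSeq window was matched for 9 of the 10 core genes, all but *POLB*. Python 3.11.15, pandas 2.3.3 and matplotlib 3.10.9 were used.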

Additional observations from a re-analysis of the deposited data

How the results depend on the processing

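The falls of *APEX1* and *LIG3* passed in every alternative run (without each sample in turn, log2 fold changes of -0.18 to -0.16 with adjusted p up to 0.00106, and of -0.33 to -0.20 with adjusted p up to 0.00802). The number of core genes that fell was 2 or 3 and the number that rose 0 or 1 without each sample in turn, and the other alternatives gave 2 or 3 that fell and none that rose. Transcripts of core genes that fell numbered 0 in the main test, 2 in DESeq2 and 1 with a minimum of 10 counts in every sample, and 0 without each sample in turn. Of the 29 further BER genes 13 to 17 rose, and 2 fell in the main test, against 1 (*NEIL2*, without *TDG*) in DESeq2, with library size as the only scaling, with the replicate block and in limma on TPM or FPKM, and 1 or 2 without each sample in turn; the cause was not tested. The direction turned only on leaving out samples, where the log2 fold change was -0.0998 to 0.0193 for *POLB* and -0.0057 to 0.0545 for *MPG*. Among transcripts it was -0.0426 to 0.21 for *PARP2* XM_005267247, -0.12 to 0.29 for *LIG3* XM_017024624, -0.0632 to 0.0929 for *POLB* XM_005273539, -0.23 to 1.07 for *POLB* NM_002690, -0.48 to 0.0014 for *POLB* XM_005273537, -0.51 to 1.29 for *POLB* XM_005273538, -0.12 to 0.22 for *OGG1* NM_016821, -0.0037 to 0.0631 for *NTHL1* NM_002528 and -0.0025 to 0.0736 for *MPG* NM_001015052. None of these had passed a test, and the cause was not tested. The common biological coefficient of variation was 0.724 over transcripts and 0.0277 over genes. The labels give both groups the numbers 1 to 3 without saying what they share, and deviations of same-numbered samples correlated at 0.00866, 0.0694 and 0.0302, with 3 of 6 samples closest to their own number, so the numbers were not taken to pair the samples. With the replicate block 2 core genes fell and none rose (*APEX1* -0.17, adjusted p = 0.000603; *LIG3* -0.26, adjusted p = 0.00269), 15 of the further genes rose and 1 fell, and no transcript of a core gene passed. With 3 samples a group, outlying samples were not tested for.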
